A study of Mus musculus with 12 samples.

Results

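Peritoneal neutrophils of MRP8-Bcl2 mice were compared with those of wild-type (WT) mice, using 6 of the 12 RNA libraries in the series. The comparison sets the 3 libraries labelled PT Bcl2 (libraries 7, 8 and 9) against the 3 labelled PT WT (libraries 10, 11 and 12), where PT stands for the peritoneum. Of the 28987 genes listed, 10634 reached at least 1 TPM (a gene's length-corrected share of all transcripts, scaled to a fixed total per library) in at least 3 of these 6 libraries and were tested. Members were therefore chosen by label and by level. The filter also let in genes that reached 1 TPM in a single genotype, 430 of them through PT WT alone and 9 through PT Bcl2 alone.

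All mice were of the FVB strain and had received 2 mL thioglycollate in the peritoneal cavity, an irritant that draws neutrophils out of the blood. MRP8-Bcl2 mice express human Bcl-2 under the regulatory regions of human MRP8, a gene of neutrophils and monocytes, so that the transgene is not limited to neutrophils. WT mice lack it, and all other treatment was shared. The time of collection was 6 h after the injection by the labels and 4 or 8 h by the study's methods, and no source says which library was taken when. The labels name macrophages as the source cells, whereas the study describes neutrophils, gated as CD11b positive, F4/80 negative and strongly GR1 positive. By the study's methods, peritoneal and marrow cells were taken from each mouse and sorted straight into Trizol. The libraries carry no mouse number, so marrow and peritoneal libraries of 1 mouse could not be matched, and the fit treats all 12 as independent. The p-values measure only the spread between these libraries. The remaining 6 libraries (3 BM Bcl2 and 3 BM WT) are from bone marrow of the same kinds of mice and serve to estimate the spread and to compare the genotype difference between sites.

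Neutrophils live briefly after leaving the marrow, and at a site of inflammation they start their own apoptosis unless they are taken up first. Bcl-2 is a protein of the outer mitochondrial membrane. It binds the pro-apoptotic members of its family, such as Bax, Bak and the BH3-only proteins, and so holds back the release of cytochrome c that activates caspases. Mature neutrophils are known for few mitochondria, for energy made mainly by glycolysis, and for granules filled during earlier stages in the marrow.

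The libraries differed in depth and in makeup, and some stood apart from their label. Judged from the smallest steps between low values, 1 read on a gene of 1000 nt was worth 0.343 to 0.452 TPM in PT WT and 0.665 to 1.07 TPM in the libraries labelled PT Bcl2, so that a single read weighed more in every one of the latter. Reads on 5009 genes with a single transcript were estimated at 160152 to 291862 per PT WT library and at 72596 to 96978 per library labelled PT Bcl2. Between 13713 and 14305 genes were above 0 in PT WT and between 9735 and 12138 in PT Bcl2. Homopolymer genes, whose transcripts hold 31 or more A or T in a row, took 50.8%, 54.2% and 20% of all TPM in libraries 10, 11 and 12, and 15.5%, 60.2% and 65.6% in libraries 7, 8 and 9. Library 12 carried more Y-linked transcripts than the other 5, with Eif2s3y at 276 TPM against 10.2 and 7.34 TPM in libraries 10 and 11 and 0.31 to 2.79 TPM in PT Bcl2, and also more transcripts of mast cells. Library 9 correlated as well with libraries 10 and 11 of PT WT (Pearson's r = 0.80 and 0.82 over 10634 genes) as PT WT libraries did with each other (0.75 to 0.84), and at 0.73 with library 12 and 0.67 and 0.75 with libraries 7 and 8 of its own label. Closer correlation with libraries 10 and 11 than with the own label was not particular to library 9. Library 8 was at 0.77 with both, against 0.66 and 0.75 with libraries 7 and 9. Library 7 was at 0.69 with both, against 0.66 and 0.67 with libraries 8 and 9.

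Of the 12 genes of neutrophil identity, some were high in every library and others were not. Ly6g was at 13.1, 14.9 and 0 TPM in libraries 10, 11 and 12 and at 58.9, 60.4 and 126 TPM in libraries 7, 8 and 9. Cebpe was at 0 to 11.6 TPM over all 6. S100a8, a subunit of calprotectin in neutrophil cytosol, was at 6486, 4495 and 27252 TPM in libraries 10, 11 and 12 and at 25493, 13763 and 5951 TPM in libraries 7, 8 and 9. Csf3r, the receptor for granulocyte colony-stimulating factor, lay between 1839 and 4569 TPM in all 6. The erythroid genes Klf1 and Epor were listed at 0 in all 6 libraries. Of the 8 eosinophil genes, Prg2 and Epx were listed at 0 in all 6, but Siglecf was at 5.05 to 20 TPM, and the list summed to 30.4 to 39 TPM in PT WT and to 5.84 to 42.8 TPM in PT Bcl2. Of the 12 T and NK cell genes, Trac and Lck were listed at 0 in all 6, but Cd3d was at 5.22 to 174 TPM, and the list summed to 36.6 to 97 TPM in PT WT and to 177, 58.3 and 17.9 TPM in libraries 7, 8 and 9. The 10 listed genes of B cells summed to 3423 to 9196 TPM in PT WT and to 1910 to 8871 TPM in PT Bcl2. The median level over the list was only 27.9 TPM, so that the sums do not stand for every member. Cd79b was at 34.4, 28.6 and 85.7 TPM in PT WT and at 1.7, 6.95 and 10.1 TPM in PT Bcl2, and Pax5 at 0 to 22.9 TPM over all 6. Of the 16 macrophage genes, Gata6 and C1qa stayed at 0.603 TPM or lower, whereas C1qb reached 32.7 TPM in library 7, Icam2 30.7 TPM in library 12 and Cd68 107 to 574 TPM over all 6, and the sum over the list was 312 to 701 TPM in PT WT and 203 to 750 TPM in PT Bcl2. Of 14 macrophage genes tested, 11 had lower fitted values in PT Bcl2, and the median over the 14 was -0.92 on the log2 scale. Over all genes tested, 80.3% had lower fitted values and the median was -0.72, so that the list was near that share. With each library centred on its own median, the list's median was -0.04, beside 0.15 for all genes. The 8 mast cell and basophil genes summed to 680 TPM in library 12 and to 4.91 to 69.7 TPM in the other 5. The 7 monocyte genes summed to 256, 191 and 128 TPM in PT WT and to 106, 93.1 and 134 TPM in PT Bcl2, and the platelet gene Pf4 was at 521 TPM in library 7 and at 9.69 to 31.8 TPM elsewhere. The part of these cells in the results below was not tested.

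The Bcl2 gene itself showed the genotype in every library but one. Bcl2 transcripts were at 1.06, 1.15 and 2.37 TPM in PT WT, at 82.8 and 58.6 TPM in libraries 7 and 8, and at 0.695 TPM in library 9. Library 9 thus lay below all PT WT libraries, against its label, while libraries 7 and 8 lay far above them. In marrow the BM Bcl2 libraries held 166, 224 and 333 TPM and the BM WT libraries 0.219 to 2.37 TPM. With library 9 included, the log2 difference was 3.05 ± 1.13 (SE) and was not called (adjusted p = 0.247, limma). Without it, the difference was 4.84 and the adjusted p 0.0214, the only gene called higher in that fit. The table lists the mouse gene, so that these are transcripts of the transgene only as far as the authors' alignment assigned them there. Because the label of library 9 is in doubt, directions below are given for the libraries as labelled, and the counts over all genes and for respiration are also given without that library.

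Other members of the Bcl-2 family showed no difference that passed the test. Mcl1, the family member on which neutrophils depend most for survival, was at 1564, 1347 and 1601 TPM in PT WT and at 1535, 1151 and 1028 TPM in PT Bcl2. The Mcl1 values of the groups overlapped, with a log2 difference of -0.30 ± 0.46 (SE). Bcl2l1, which encodes Bcl-xL, was at 19.2, 27.7 and 9.08 TPM in PT WT and at 100, 44.2 and 14.4 TPM in PT Bcl2, again with overlap (adjusted p = 0.501, limma). Among the death effectors, Bax was at 20.4, 10.5 and 9.39 TPM in PT WT and at 1.31, 4.19 and 30.6 TPM in PT Bcl2, where library 9 held the highest value of all 6. Bcl2l11, which encodes the BH3-only protein Bim, overlapped as well (89.5 to 178 TPM against 75.3 to 119 TPM). Of the 5 pro-apoptotic members tested, all 5 had fitted values below 0, with a median of -0.88, close to the median of -0.72 over all genes tested. Of 19 caspases and other genes of cell death execution, 0 were called and 0 had an unadjusted p under 0.05 in either direction, and their median was -0.84. Casp9, the initiator caspase activated on the apoptosome, had the smallest p on the lower side (7.38, 3.5 and 16 TPM against 0, 1.72 and 6.83 TPM, adjusted p = 0.365, limma).

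Across the whole table, values in the libraries labelled PT Bcl2 were mostly lower. The fitted difference was below 0 for 8534 of 10634 genes (80.3%), with a median of -0.72 on the log2 scale, which is the scale of TPM + 1 and understates the change of low genes. A gene was called at an adjusted p under 0.05 and a difference of at least 2-fold in limma, which gave 11 genes lower (0.103% of those tested) and 0 higher (0%). At an unadjusted p under 0.05, 1541 genes were lower (14.5%) and 53 higher (0.498%). The groups did not overlap for 2125 genes on the lower side (20%) and for 70 on the higher side (0.658%). With 3 libraries against 3, an exact permutation test of a single gene cannot go below p = 0.1 (two-sided). Leaving out library 9 gave 16 genes called lower and 1 higher, with 1852 lower and 153 higher at the unadjusted threshold. Leaving out library 12 gave 6 called lower and 0 higher, with 818 lower and 44 higher at the unadjusted threshold and a median of -0.51.

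The balance of directions depended on scaling. When each library was centred on its own median, which moved all differences up by 0.88, the median was 0.15. The unadjusted threshold then gave 461 genes higher (4.34%) and 325 lower (3.06%), and 1 gene was called. The centred groups did not overlap for 736 genes on the higher side (6.92%) and for 595 on the lower side (5.60%). Estimated reads and genes above 0 were both lower in every library labelled PT Bcl2 than in every PT WT library, although within a label they did not follow each other, and their part in the shift was not tested. In bulk RNA, fewer cells of a type and less RNA per cell cannot be told apart either.

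The shift was deepest between 2 and 20 TPM. The median was -0.66 for the 1101 genes of up to 2 TPM, -0.88 for the 2340 genes of 2 to 5 TPM and -0.86 for the 1844 genes of 10 to 20 TPM. Genes with a mean of 5 to 10 TPM over the 6 PT libraries had a median difference of -1.02 (2020 genes), those of 100 to 500 TPM of -0.27 (706 genes) and those above 500 TPM of -0.11 (124 genes). By transcript length, the 271 genes of up to 500 nt had a median of -0.97 and the 3821 genes above 4000 nt of -0.70. There were 430 genes at 1 TPM or more in all 3 PT WT libraries and in no library labelled PT Bcl2, and 9 genes the other way round.

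**Figure D1:**
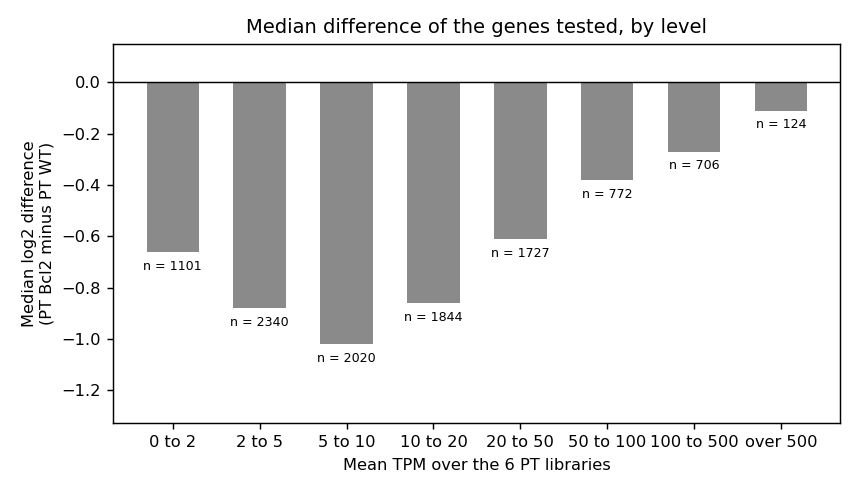
Median log2 difference (PT Bcl2 minus PT WT, y axis, log2 of TPM + 1) of the genes tested, in bins of their mean TPM over the 6 PT libraries (x axis), with the number of genes under each bar. Every bar is below 0, from -1.02 for genes of 5 to 10 TPM to -0.11 for genes above 500 TPM.

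The 11 genes called fell in the libraries labelled PT Bcl2, and 6 of them encode proteins. Of these, Atp5k and Atp5g3 encode subunits of the mitochondrial ATP synthase, Snapc5 a subunit of the complex that starts transcription of small nuclear RNA genes, Rpp21 a subunit of ribonuclease P, Wdr3 a protein of ribosome assembly in the nucleolus, and Vps53 a tethering protein of transport back to the Golgi. The other 5 are named only as gene models, and 4 of those are annotated as processed pseudogenes. Positions below are from GENCODE M21 on GRCm38, since the build behind the deposited table is not given in the sources used here.

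Atp5k (chromosome 5, 108433244 to 108434448, minus strand) was at 9.16, 79.3 and 49.8 TPM in PT WT and listed at 0 in libraries 7, 8 and 9. Atp5g3 (chromosome 2, 73908447 to 73911326, minus strand) was at 51.4, 47.7 and 83.9 TPM in PT WT and at 1.76, 0 and 9.05 TPM in PT Bcl2. Neither gene overlapped between the groups, and library 9 was the highest of its label for Atp5g3. The log2 difference of Atp5g3 was -4.31 ± 0.77 (SE; adjusted p = 0.0471, limma), and the adjusted p of Atp5k was 0.0255. Behind the Atp5g3 values stood an estimated 122, 86 and 157 reads in PT WT and 1, 0 and 11 reads in PT Bcl2.

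Vps53 (chromosome 11, 76046226 to 76179647, minus strand) was at 42, 14.9 and 101 TPM in PT WT and at 0, 0.42 and 4.43 TPM in PT Bcl2, a log2 difference of -4.38 ± 0.78 (SE; adjusted p = 0.0471, limma). Rpp21 (chromosome 17, 36255645 to 36258069, minus strand) was at 66.2, 32 and 125 TPM in PT WT and at 0, 2.83 and 6.07 TPM in PT Bcl2, a difference of -4.44 ± 0.77 (SE; adjusted p = 0.0471, limma). For both, library 12 was the highest and library 7 the lowest, and the groups lay apart. Snapc5 (chromosome 9, 64179274 to 64183132, plus strand) was at 30.1, 12.2 and 21.7 TPM in PT WT and at 0, 1.03 and 0 TPM in PT Bcl2, a difference of -4.05 ± 0.67 (SE; adjusted p = 0.0405, limma). Wdr3 (chromosome 3, 100138180 to 100162407, minus strand) was at 13, 19.9 and 19.9 TPM in PT WT and at 0, 0.678 and 0 TPM in PT Bcl2, a difference of -3.94 ± 0.69 (SE; adjusted p = 0.0471, limma). Snapc5 and Wdr3 were thus listed at 0 in 2 of the 3 libraries labelled PT Bcl2, including library 9, and the estimated reads in library 8 were 2 for Snapc5.

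Calls of the protein-coding genes other than Atp5k were lost in most other fits. Atp5k remained called in 12 of the 23 alternatives run on it. Leaving out each library in turn, Atp5k remained called in 6 of 12 fits, Vps53 in 2, Atp5g3, Rpp21 and Snapc5 in 1 each, and Wdr3 in 0, with an adjusted p between 0.00421 and 0.197 over these fits and genes. When only protein-coding genes were tested, 0 genes were called.

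Gm12191, a processed pseudogene with a transcript like that of Rpl30, a ribosomal protein gene (chromosome 11, 49678710 to 49679057, minus strand), gave the smallest p. It was at 145, 125 and 310 TPM in PT WT and at 0.0862, 8.28e-08 and 0.0896 TPM in libraries 7, 8 and 9. The groups were far apart, with a log2 difference of -7.40 ± 0.61 (SE; adjusted p = 4.08e-05, limma), and the call remained in all 12 fits that left out a library and in all 22 alternatives run on it. All 31-mers of its transcript occur in other transcripts too, in 20 genes of which 13 are in the table. The sequences below are shown because they are what separates this pseudogene from 2 others. They are the first and last stretches of the 348 nt transcript of Gm12191 and of the Rpl30 pseudogenes that match it over the longest run (GENCODE M21, GRCm38), written 5′ to 3′ with the bases that differ within each pair in capitals.
Gm12191, bases 1 to 50: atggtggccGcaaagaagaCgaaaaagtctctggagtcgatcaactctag
Rpl30-ps10, bases 1 to 50: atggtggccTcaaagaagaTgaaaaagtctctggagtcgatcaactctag
Gm12191, bases 299 to 348: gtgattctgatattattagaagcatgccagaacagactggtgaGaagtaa
Rpl30-ps9, bases 296 to 345: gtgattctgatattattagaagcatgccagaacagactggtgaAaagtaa

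Gm12191 and Rpl30-ps10 differed at 2 of the 50 bases shown and were identical over 327 nt that follow, and Gm12191 and Rpl30-ps9 differed at 1 of the 50 and were identical over 338 nt before it. Rpl30 itself shared a run of 252 nt with Gm12191. The values of these near copies had the opposite order. Rpl30-ps9 (chromosome X, 105278637 to 105278981) was listed at 0 in all PT WT libraries and at 206, 16.7 and 0 TPM in libraries 7, 8 and 9. Rpl30-ps10 (chromosome X, 71803688 to 71804034) was listed at 0 in all PT WT libraries and at 36.4, 0 and 71 TPM in libraries 7, 8 and 9. Rpl30 was at 77.5, 78.4 and 215 TPM in PT WT and at 165, 25.1 and 47.6 TPM in PT Bcl2, with overlap. Summed over 7 genes (Gm12191, Rpl30 and 5 pseudogenes named for it), PT WT held 239, 213 and 569 TPM and PT Bcl2 408, 41.8 and 119 TPM, and the groups overlapped. With Gm12191 summed with the genes of the table that share its 31-mers (14 genes in all), the difference was -1.26 ± 0.72 (SE; adjusted p = 0.422, limma) and was not called. The call is thus on Gm12191 as listed, and the summed level was not called.

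Of the other gene models called, Gm13354 was at 10.6, 42.8 and 26.7 TPM in PT WT and listed at 0 in libraries 7, 8 and 9 (adjusted p = 0.00201, limma). Gm15186 (chromosome X, 159588465 to 159589027, plus strand) was at 12.2, 10 and 12.7 TPM in PT WT and listed at 0 in all 3 of PT Bcl2 (adjusted p = 0.00201, limma). Both passed the filter through PT WT alone, and so did Gm12191, Atp5k, Wdr3, Gm15914 and Gm15971, which stayed under 1 TPM in every PT Bcl2 library. Gm13354 and Gm15186 were also listed at 0 in all 6 marrow libraries, and these zeros entered the estimate of their spread. Both calls remained in all 12 fits that left out a library, but fitted on the 6 PT libraries alone each had an adjusted p of 0.208, and after centring these were 0.0612 for Gm13354 and 0.0902 for Gm15186 (limma). Gm15914 (7.6, 6.87 and 53.5 TPM in PT WT) and Gm15971 (60.7, 41.7 and 86.8 TPM in PT WT) were also listed at 0 throughout PT Bcl2, with adjusted p values of 0.0405 and 0.0462 (limma) that remained under the threshold in 3 and 2 of those 12 fits. Gm15914 was likewise at 0 in all 6 marrow libraries, and on the 6 PT libraries alone its adjusted p was 0.224 (limma).

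**Figure D2:**
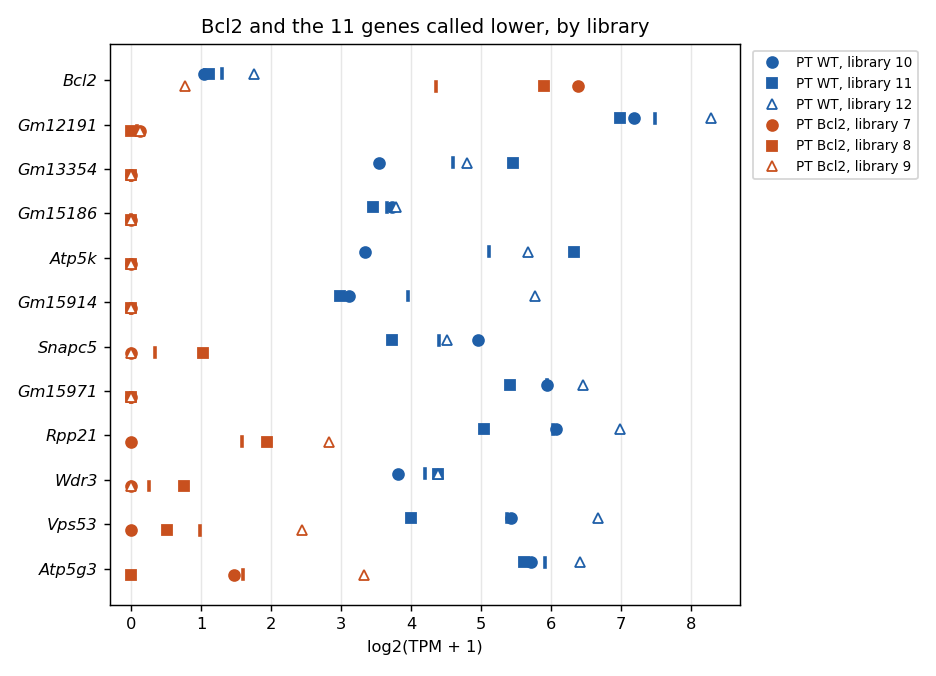
Level of Bcl2 and of the 11 genes called lower (y axis) in each PT library (x axis, log2 of TPM + 1), with PT WT in blue, PT Bcl2 in orange and the group mean as a vertical bar. For Bcl2, libraries 7 and 8 lie above all others and library 9 lies with PT WT; for each of the 11 genes every blue point lies to the right of every orange point.

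Genes of mitochondrial respiration had lower values together. The respiratory chain passes electrons through complexes I to IV, and complex V, the ATP synthase, uses the proton gradient to make ATP. Nuclear genes encode most subunits and the mitochondrial genome 13. Of 71 nuclear subunit genes tested, 2 were called lower (Atp5k and Atp5g3), 21 were lower and 0 higher at an unadjusted p under 0.05, and 22 did not overlap on the lower side. The list's share at the unadjusted threshold, 21 of 71, stands beside 14.5% of all genes tested. Of all genes tested, 0.103% were called lower and 20% did not overlap on the lower side. Its median was -1.18 against -0.72 for all genes, and -0.30 against 0.15 after centring. Without library 9 the median was -1.30.

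By complex, the median was -1.18 for the 34 genes of complex I, -2.48 for 4 of complex II, -1.21 for 8 of complex III, -0.83 for 10 of complex IV and -1.40 for 15 of complex V. Ndufa3, an accessory subunit of complex I, was at 20, 25.8 and 15.1 TPM in PT WT and at 0, 0 and 2.5 TPM in PT Bcl2, a difference of -3.78 ± 0.70 (SE; adjusted p = 0.0578, limma). It missed the threshold with library 9 and passed it without (adjusted p = 0.0232). Ndufs4, another complex I subunit, was at 10.7, 5.5 and 16.3 TPM in PT WT and listed at 0 in libraries 7, 8 and 9 (adjusted p = 0.0852, limma). In complex II, succinate dehydrogenase, the iron-sulphur subunit gene Sdhb was at 15.6, 8.15 and 17.7 TPM in PT WT and at 0, 0 and 1.24 TPM in PT Bcl2 (adjusted p = 0.095, limma). Its flavoprotein gene Sdha was at 26.6, 28.4 and 130 TPM in PT WT and at 6.67, 9.37 and 17.1 TPM in PT Bcl2 (adjusted p = 0.226, limma). In each of these the groups lay apart, and library 9 was the highest of its label wherever it was above 0. The membrane anchor gene Sdhd was at 32.8, 24.1 and 23.3 TPM in PT WT and at 0, 1.98 and 16.3 TPM in PT Bcl2, and was called without library 9 (adjusted p = 0.0319, limma) but not with it (adjusted p = 0.194). In complex V, Atp5f1 was at 54.9, 40.2 and 132 TPM in PT WT and at 5.29, 25.7 and 4.23 TPM in PT Bcl2 (adjusted p = 0.118, limma). Against this, Ndufa2 of complex I had a higher fitted value, at 16.2, 15.1 and 46.9 TPM in PT WT and 190, 72.4 and 10.2 TPM in PT Bcl2, where library 9 was the lowest of all 6.

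The 13 proteins encoded by the mitochondrial genome had fitted values below 0 without exception. Their summed level was 9883, 7249 and 13959 TPM in PT WT and 4776, 2420 and 3589 TPM in PT Bcl2, so that every library labelled PT Bcl2 lay below every PT WT library. Of the 13, 0 were called, 8 had an unadjusted p under 0.05 on the lower side, where 14.5% of all genes did, and 10 did not overlap, where 20% of all genes did not. The median was -1.69, and it was -0.82 after centring and -1.89 without library 9. mt-Nd6, a complex I subunit and the only one encoded on the light strand, was at 670, 741 and 991 TPM in PT WT and at 49.4, 196 and 212 TPM in PT Bcl2, a difference of -2.62 ± 0.79 (SE; adjusted p = 0.202, limma). mt-Atp8 was at 680, 435 and 860 TPM against 77.5, 102 and 316 TPM. mt-Co2, a catalytic subunit of cytochrome c oxidase, was at 980, 681 and 1323 TPM against 264, 218 and 293 TPM. None of libraries 7, 8 and 9 reached a PT WT library for these 3 genes. mt-Co1 did overlap, since library 7 held 1473 TPM beside 1435, 1248 and 2350 TPM in PT WT and 455 and 518 TPM in libraries 8 and 9. Unlike most nuclear subunits these transcripts are abundant, although their 31-mers are partly shared with nuclear copies, 63.9% for mt-Co1 and 100% for mt-Co2.

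**Figure D3:**
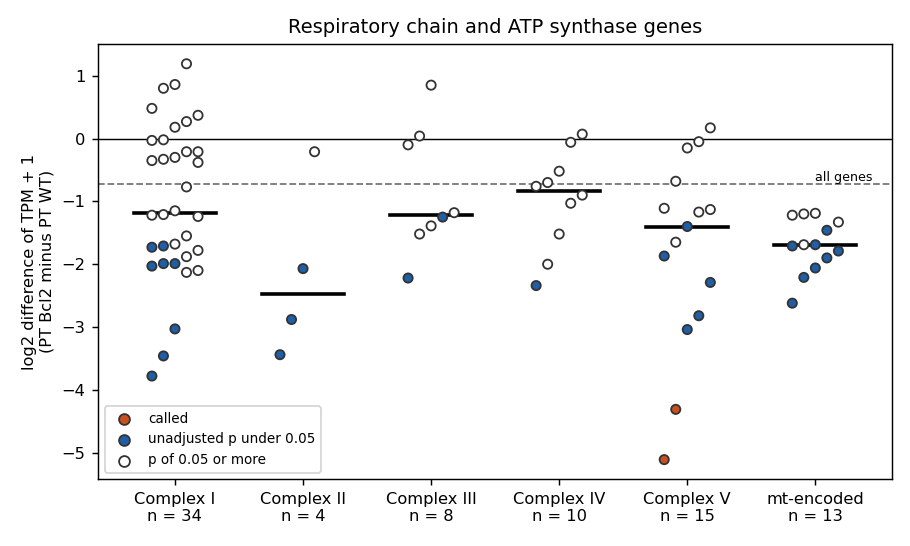
Log2 difference of TPM + 1 (PT Bcl2 minus PT WT, y axis) of each tested gene of complexes I to V and of each gene encoded in the mitochondrial genome (x axis), with the median of each group as a black bar and that of all genes tested as a dashed line. Orange marks the 2 genes called (Atp5k and Atp5g3 of complex V), blue an unadjusted p under 0.05, white other genes; all 13 mitochondrially encoded genes lie below 0.

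In the lists of the proteasome, the ribosome and RNA processing, 0 genes were called. The proteasome degrades proteins tagged with ubiquitin, by a catalytic core and a regulatory cap. Of 35 subunit genes tested, 11 were lower and 2 higher at an unadjusted p under 0.05, beside 14.5% and 0.498% of all genes, and the median was -1.13 (-0.25 after centring). The groups lay apart on the lower side for 8 of the 35, a share near the 20% of all genes. Psmc3, an ATPase of the cap, was at 15.2, 11 and 23.7 TPM in PT WT and at 0.685, 0.439 and 0.425 TPM in PT Bcl2, a difference of -3.48 ± 0.65 (SE; adjusted p = 0.0578, limma). The values of libraries 7, 8 and 9 stood for an estimated 1 read each, against 51 to 115 reads in PT WT. Psmb1, a core subunit, was at 17.9, 8.63 and 23.4 TPM against 0, 1.97 and 3.21 TPM. On the higher side stood Psmd4, the ubiquitin receptor of the cap, at 14.4, 8.6 and 21.8 TPM in PT WT and 57, 30.6 and 43.9 TPM in PT Bcl2, a difference of 1.54 ± 0.67 (SE; adjusted p = 0.302, limma) with no overlap. Psmb10, a core subunit induced by interferon, was at 2.51, 1.99 and 3.79 TPM in PT WT and at 120, 3.53 and 7.34 TPM in PT Bcl2, where library 7 was far above the rest.

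The 78 cytosolic ribosomal protein genes tested had a median of -0.70, close to that of all genes (-0.72), with 14 lower and 0 higher at an unadjusted p under 0.05 and 11 not overlapping on the lower side, so that the list did not stand out from the 14.5% and 20% of all genes. Rpl6 was at 144, 81.4 and 146 TPM in PT WT and at 36.8, 39.8 and 39.8 TPM in PT Bcl2, with no overlap (adjusted p = 0.215, limma). Many of these genes have processed pseudogenes, as shown for Rpl30, so their single values are uncertain. Of 20 genes of transcription and splicing, 5 were lower and 0 higher at the unadjusted threshold, with a median of -0.84 (0.04 after centring, below the 0.15 of all genes). Srsf3, a splicing factor of the SR family, was at 139, 90.4 and 177 TPM in PT WT and at 23.3, 44 and 34.3 TPM in PT Bcl2 (adjusted p = 0.203, limma). Tbp, the TATA-binding protein, was at 61.8, 39.6 and 72.7 TPM in PT WT and at 0.296, 20.5 and 1.9 TPM in PT Bcl2 (adjusted p = 0.109, limma), and library 8 came nearest to PT WT.

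Among other protein-coding genes of small p, Babam2, a subunit of deubiquitinating complexes in DNA repair and cytokine signalling, was at 60.1, 50.5 and 139 TPM in PT WT and at 2.69, 6.28 and 8.2 TPM in PT Bcl2, a difference of -3.60 ± 0.67 (SE; adjusted p = 0.0578, limma). Ssr4, a subunit of the translocon-associated complex of the endoplasmic reticulum, was at 24.8, 28.2 and 23.5 TPM in PT WT and at 0, 0.273 and 2.1 TPM in PT Bcl2 (adjusted p = 0.0739, limma). Neither overlapped between the groups. Retnla, a secreted product of alternatively activated macrophages and eosinophils, was at 25.5, 23.9 and 330 TPM in PT WT and at 0, 1.52 and 7.77 TPM in PT Bcl2 (adjusted p = 0.123, limma), and library 12 was far above the rest. In all, 427 protein-coding genes with a mean of at least 20 TPM lay without overlap on the lower side, and 29 on the higher side. Among all genes tested above 20 TPM, the share without overlap was 8.06 to 17% lower and 0.389 to 1.27% higher, by level. These stand beside 20% and 0.658% of all genes tested, so that the lower side did not stand out.

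The genes with higher values in the libraries labelled PT Bcl2 were few, and 0 of them passed the adjusted threshold (53 at an unadjusted p under 0.05). The smallest adjusted p, 0.0852 in limma, was that of Gm13092, a processed pseudogene chosen after its values were seen, which was listed at 0 in all PT WT libraries and at 10.3, 14 and 46.6 TPM in libraries 7, 8 and 9. Among protein-coding genes the smallest p was that of Rbm38, an RNA-binding protein that is a target of p53. Rbm38 was at 15.5, 26.4 and 11 TPM in PT WT and at 111, 75 and 64.1 TPM in PT Bcl2, a difference of 2.23 ± 0.57 (SE; adjusted p = 0.135, limma). All 3 libraries labelled PT Bcl2 lay above all of PT WT.

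Ly6g, a granulocyte antigen that antibodies to GR1 recognise, was at 13.1, 14.9 and 0 TPM in PT WT and at 58.9, 60.4 and 126 TPM in PT Bcl2, a difference of 3.67 ± 1.08 (SE; adjusted p = 0.194, limma). Library 9 was the highest of all 6 and library 12 the lowest, and the groups did not overlap. In marrow the order was not the same, with 588, 1059 and 1266 TPM in BM WT and 1225, 203 and 51.5 TPM in BM Bcl2. Cul5, the scaffold of a family of ubiquitin ligases, was at 13.9, 4.23 and 5.91 TPM in PT WT and at 48.2, 27.4 and 34 TPM in PT Bcl2 (adjusted p = 0.203, limma). Scamp1, a membrane protein of secretory carriers, was at 7.21, 8.99 and 6.34 TPM against 30, 60.4 and 15.1 TPM (adjusted p = 0.217, limma). Neither gene overlapped, and in Scamp1 library 9 was the nearest to PT WT.

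Mndal, an interferon-inducible gene of the p200 family, was at 0.464, 1.22 and 0.789 TPM in PT WT and at 48, 9.46 and 3.85 TPM in PT Bcl2 (adjusted p = 0.197, limma), and 28.7% of its 31-mers also occur in relatives such as Ifi204. Gpr84, a receptor for medium-chain fatty acids on inflamed myeloid cells, was at 52, 55.9 and 47.4 TPM in PT WT and at 1704, 69.8 and 86 TPM in PT Bcl2. Fam102a was at 4.23, 3.03 and 4.4 TPM in PT WT and at 93.9, 16.2 and 8.16 TPM in PT Bcl2. For these 3 genes library 7 was many times above libraries 8 and 9, though all 3 lay above PT WT. The spread was smaller for Amdhd2, an enzyme that removes the acetyl group of N-acetylglucosamine 6-phosphate, at 135, 130 and 90.4 TPM in PT WT and 840, 347 and 303 TPM in PT Bcl2 (adjusted p = 0.256, limma). Gabbr1, a subunit of the metabotropic GABA receptor, was at 61.4, 63.7 and 53.2 TPM in PT WT and at 230, 265 and 138 TPM in PT Bcl2 (adjusted p = 0.379, limma). Both genes were free of overlap between the groups.

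**Figure D4:**
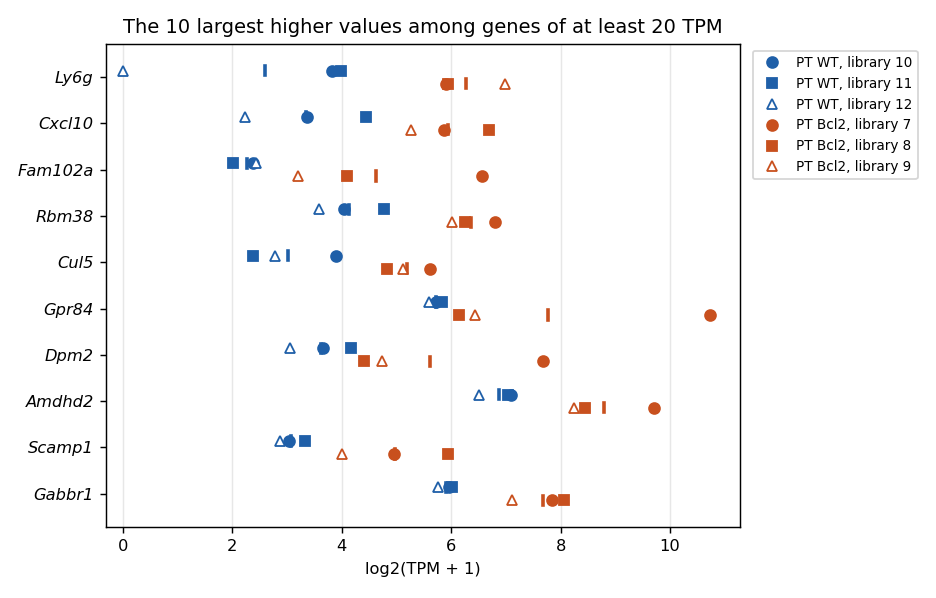
Level (x axis, log2 of TPM + 1) in each PT library of the 10 protein-coding genes with the largest higher values among those of at least 20 TPM on average and without overlap (y axis), with PT WT in blue, PT Bcl2 in orange and group means as vertical bars. Library 7 is the highest for 6 of the 10 genes, and library 12 is the lowest of all for 8; none of the 10 passed the adjusted threshold.

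Genes of the interferon response had a higher median than the table as a whole. The 30 interferon-stimulated genes tested had a median of 0.53 where all genes had -0.72, and 7 of the 30 were below 0. Of them, 0 were called, and 1 was higher and 0 lower at an unadjusted p under 0.05. After centring, the median was 1.40 beside 0.15 for all genes, and 9 were higher at the unadjusted threshold where 4.34% of all genes were. Igtp, a GTPase of the immunity-related family induced by interferon gamma, was at 25.6, 50.7 and 1.7 TPM in PT WT and at 200, 105 and 24.5 TPM in PT Bcl2 (unadjusted p = 0.0417, limma). The groups overlapped through library 9, and without library 12 the unadjusted p was 0.265. Irf1, a transcription factor of the same response, was at 60.1, 133 and 25.3 TPM against 213, 178 and 71.6 TPM. In both genes library 12 was the lowest of PT WT and library 9 the lowest of PT Bcl2.

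The 17 chemokine genes had a median of 0.30 beside -0.72 for all genes, with 0 called. At an unadjusted p under 0.05, 2 were higher and 2 lower, beside 0.498% and 14.5% of all genes. After centring, the list's median was 1.18 beside 0.15 for all genes, with 2 higher and 0 lower at that threshold. Cxcl10, a ligand of Cxcr3 that attracts T cells and is itself induced by interferon, was at 9.32, 20.7 and 3.69 TPM in PT WT and at 57.1, 103 and 37.6 TPM in PT Bcl2, a difference of 2.60 ± 1.07 (SE; adjusted p = 0.282, limma) with no overlap. Without library 12 its unadjusted p moved from 0.0283 to 0.11. Ccl17, a ligand of Ccr4, was at 204, 35.8 and 0 TPM in PT WT and at 224, 348 and 90.9 TPM in PT Bcl2, and without library 12 its unadjusted p moved from 0.0375 to 0.293. For both, library 12 held the lowest value of the 6. On the lower side, Ccl5, an attractant of T cells and monocytes, was at 8.33, 22.2 and 4.64 TPM in PT WT and at 0, 1.26 and 0 TPM in PT Bcl2, a difference of -3.03 ± 0.98 (SE; adjusted p = 0.217, limma). Ccl9 was at 80.7, 76.8 and 44.3 TPM against 28.8, 15.3 and 33.6 TPM (adjusted p = 0.314, limma). These 2 lay below PT WT in all 3 libraries. The main neutrophil attractants did not separate. Cxcl2 was at 563, 276 and 2058 TPM in PT WT and at 2068, 566 and 232 TPM in PT Bcl2, and Cxcl1 at 5.12, 2.9 and 38.6 TPM against 21.8, 14 and 13 TPM.

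Of 11 cytokine genes tested, 0 passed either threshold, and their median was 0.18 (-0.19 without library 9). Il1b was at 1783, 1611 and 7334 TPM in PT WT and at 3093, 1042 and 1614 TPM in PT Bcl2. Its antagonist Il1rn was at 4002, 3084 and 4055 TPM against 7777, 3901 and 2820 TPM. Tnf was at 59.8, 32 and 63.6 TPM against 64.1, 80.4 and 44.4 TPM. Each of these overlapped. Of 23 receptors for chemoattractants and cytokines, 0 passed either threshold, with a median of -0.04. Cxcr2, the receptor for Cxcl1 and Cxcl2, was at 1333, 1718 and 2236 TPM in PT WT and at 3914, 1325 and 1290 TPM in PT Bcl2.

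Granule genes, which are transcribed mostly before neutrophils leave the marrow, showed no common direction in the values as deposited. The 11 genes of secondary and tertiary granules had a median of 0.29 beside -0.72 for all genes, and 0 were called. At an unadjusted p under 0.05, 2 were higher and 1 lower, beside 0.498% and 14.5% of all genes. After centring, their median was 1.16 beside 0.15 for all genes. At that threshold 4 were then higher and 1 lower, where 4.34% and 3.06% of all genes were. Camp, which encodes the cathelicidin, was at 27.5, 43.5 and 19.3 TPM in PT WT and at 56.4, 48.1 and 44.7 TPM in PT Bcl2, without overlap but with an adjusted p of 0.511 (limma). Hp, which encodes haptoglobin, was at 170, 222 and 91.2 TPM against 739, 203 and 261 TPM (unadjusted p = 0.0446, limma). Cd177, a surface antigen of a subset of neutrophils, was at 34.7, 35.6 and 2.62 TPM against 115, 107 and 23.5 TPM, and its unadjusted p of 0.0342 became 0.238 without library 12. Ltbp1, which binds latent TGF beta, went the other way, at 8.91, 22.2 and 63.7 TPM in PT WT and 0, 3.35 and 5.04 TPM in PT Bcl2, a difference of -3.05 ± 0.82 (SE; adjusted p = 0.149, limma) without overlap. Among primary granule genes, Mpo, which encodes myeloperoxidase, was low, reaching at most 7.1 TPM in PT WT and 17.2 TPM in PT Bcl2. Lyz2, on the same list, was not low, at 737, 1110 and 2397 TPM against 2065, 416 and 705 TPM, with overlap.

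Of 12 genes of neutrophil identity, 0 were called, with a median of 0.27, and Ly6g alone did not overlap. After centring, 6 of the 12 did not overlap on the higher side, where 6.92% of all genes did. Spi1, the transcription factor PU.1, was at 313, 406 and 416 TPM in PT WT and at 322, 320 and 302 TPM in PT Bcl2, nearly level in all 6 libraries. The 7 genes of the NADPH oxidase, the source of the respiratory burst, had a median of -0.63. Cybb, its catalytic subunit, was at 70.7, 49.3 and 88.4 TPM in PT WT and at 11.1, 47.1 and 37.5 TPM in PT Bcl2 (adjusted p = 0.351, limma), with library 8 just under the lowest PT WT library. Cyba, the partner in the same membrane complex, was at 85.5, 67.4 and 59.2 TPM against 192, 103 and 54.3 TPM and overlapped.

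The study asked how viable neutrophils are marked for uptake by macrophages. In this process calreticulin on the cell surface acts as a signal to eat and CD47 as a signal not to, and neuraminidases remove sialic acid from glycoproteins. The study reported very low calreticulin RNA and protein in neutrophils, and concluded that macrophages secrete the calreticulin found on their surface. RNA levels in the sorted cells are thus not a measure of surface calreticulin. Calr, which encodes calreticulin, was at 55.5, 58.1 and 79.6 TPM in PT WT and at 20.6, 15 and 34.5 TPM in PT Bcl2. The groups did not overlap, and the difference was -1.48 ± 0.57 (SE), with an unadjusted p of 0.0207 and an adjusted p of 0.262 (limma). Without library 9 the unadjusted p was 0.0135, and without library 12 it was 0.0575. After centring, the difference of Calr was -0.61, with an unadjusted p of 0.249 (limma). Its co-chaperone Pdia3 was at 81.7, 75 and 101 TPM against 47.3, 57.5 and 50.3 TPM, and Hsp90b1 at 274, 264 and 200 TPM against 194, 90.2 and 159 TPM. These 2 also lay below PT WT in all libraries, but their differences of -0.71 and -0.79 were near the median of all genes and turned positive after centring (0.16 and 0.09). Cd47 was at 90.4, 110 and 127 TPM in PT WT and at 397, 133 and 59.7 TPM in PT Bcl2, which spans the PT WT values on both sides (adjusted p = 0.746, limma). Sirpa, the receptor for CD47, was at 93.2, 99.7 and 146 TPM against 74.1, 165 and 101 TPM. Over the 15 genes of this list, 0 were called, 1 was lower (Calr) and 0 higher at the unadjusted threshold, and the median was -0.24.

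Of 13 genes of sialic acid removal, synthesis and transfer, 0 were called, 1 was lower and 0 higher at the unadjusted threshold, and the median was -1.10 (-0.22 after centring). Slc35a1, the transporter that carries CMP-sialic acid into the Golgi, was at 3.86, 6.29 and 9.57 TPM in PT WT and at 0.447, 0.717 and 1.33 TPM in PT Bcl2, a difference of -2.0 ± 0.71 (SE; adjusted p = 0.235, limma) without overlap. St3gal1, a sialyltransferase, was at 80.5, 49.6 and 66.9 TPM against 36.2, 32.3 and 39.2 TPM (adjusted p = 0.441, limma), also without overlap. Of the neuraminidases, the lysosomal Neu1 was at 3.91, 8.74 and 27.1 TPM in PT WT and at 2.15, 10.3 and 2.85 TPM in PT Bcl2, with overlap. Neu3, at the plasma membrane, was at 2.23, 2.74 and 10.2 TPM against 2.26, 0.574 and 0.467 TPM, Neu2 was listed at 0 in all 6, and Neu4, at 0.186 TPM or lower, was not tested.

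Immediate early genes are induced within minutes by stress, including that of cell isolation. Of 25 tested, 0 were called, and 3 were lower and 0 higher at the unadjusted threshold, beside 14.5% and 0.498% of all genes. The median was -0.47 against -0.72 for all genes, so that the list did not stand out on the lower side. Fosb was at 8.47, 6.3 and 13 TPM in PT WT and at 0, 2.33 and 2.35 TPM in PT Bcl2 (adjusted p = 0.229, limma), without overlap. Fos was at 43.1, 48 and 184 TPM against 3.86, 17.6 and 44.3 TPM, where library 9 overlapped with PT WT and library 12 was highest. Klf4 was at 12.4, 10.5 and 9.83 TPM against 0, 0.205 and 7.52 TPM (adjusted p = 0.275, limma), without overlap but with library 9 close to PT WT.

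Glycolysis, in contrast with respiration, had a median near 0. Of 19 genes, 0 were called, 1 was lower and 0 higher at the unadjusted threshold, with a median of 0.09. After centring, 7 were higher and 0 lower, beside 4.34% and 3.06% of all genes. The centred median was 0.97, beside 0.15 for all genes. Pkm, the pyruvate kinase of leukocytes, was at 146, 156 and 163 TPM in PT WT and at 949, 247 and 104 TPM in PT Bcl2. Ldha, which regenerates NAD+ by making lactate, was at 96, 130 and 110 TPM against 164, 117 and 136 TPM. Pfkl, the liver-type phosphofructokinase, was the exception at 6.58, 11.9 and 62.4 TPM against 2.97, 3.35 and 0.989 TPM (adjusted p = 0.229, limma). The 21 lysosomal and autophagy genes had a median of 0.32, with 0 called and with 0 higher and 1 lower at the unadjusted threshold. Once centred, 6 of the 21 were higher and 0 lower, with a median of 1.20. Glycolytic and lysosomal genes had higher mean levels than respiratory genes (median over the list of 106 and 101 TPM, against 13 TPM for nuclear respiratory subunits), and over all genes the shift was smaller above 20 TPM than between 2 and 20 TPM. The 13 mitochondrially encoded genes, with a median level of 477 TPM, had the lowest median difference among the 28 functional lists with at least 4 genes tested.

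**Figure D5:**
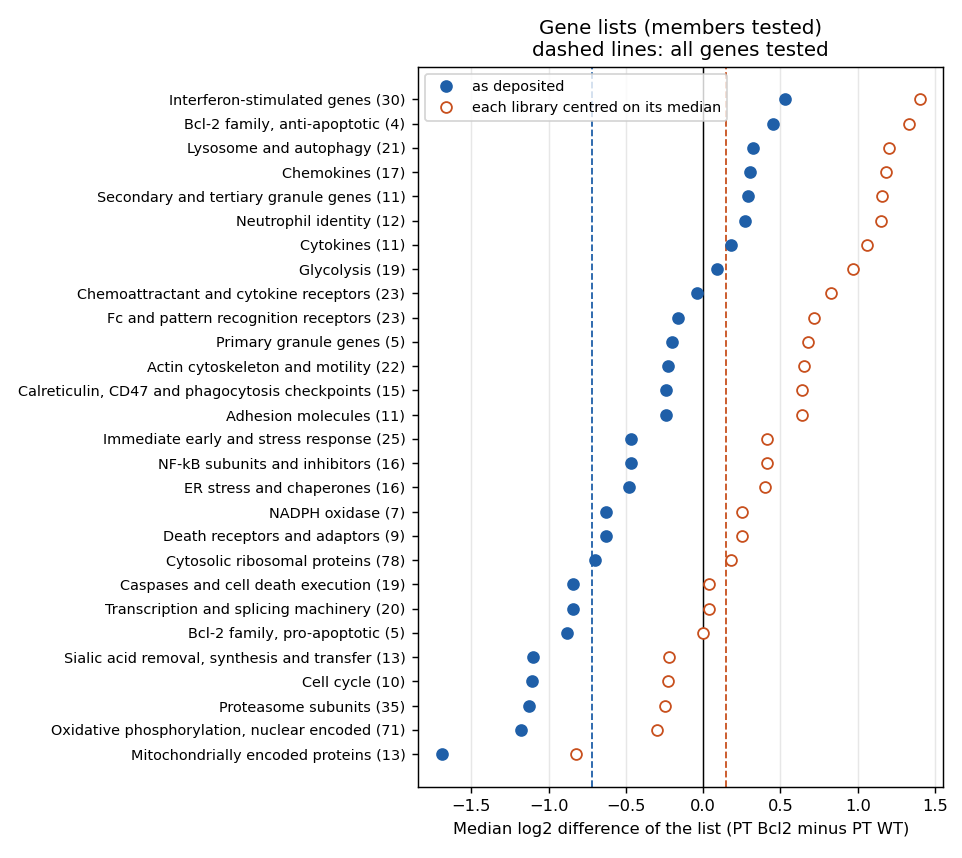
Median log2 difference (x axis, PT Bcl2 minus PT WT, log2 of TPM + 1) of each functional gene list with at least 4 members tested (y axis, number tested in parentheses), as deposited (blue) and after centring each library on its median (white with orange edge). Dashed lines give the medians of all genes tested, -0.72 and 0.15; interferon-stimulated genes are at the top (0.53 and 1.40) and mitochondrially encoded proteins at the bottom (-1.69 and -0.82).

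The genotype difference in the peritoneum was set beside that in marrow. BM Bcl2 against BM WT, over the same 10634 genes, had 0 called (0%), 546 higher (5.13%) and 67 lower (0.630%) at an unadjusted p under 0.05, and a median of 0.47, the opposite sign to that in PT. For the nuclear respiratory genes the median was 0.78 in marrow and -1.18 in PT, and for the mitochondrially encoded genes 0.46 and -1.69. For interferon-stimulated genes it was 0.31 in marrow and 0.53 in PT. The test of the difference between the sites (the interaction in limma) called 2 genes (0.0188%), Gm12191 and Gm8186, both processed pseudogenes whose 31-mers all occur in other genes. At an unadjusted p under 0.05, 1802 genes had an interaction below 0 (16.9%) and 34 above 0 (0.320%). Of the 71 nuclear respiratory genes 25 were among the former, of the 13 mitochondrially encoded genes 7, of the 78 ribosomal protein genes 19 and of the 35 proteasome genes 10, with 0 of these on the other side. Calr was one of 4 genes of its list with an interaction below 0 at an unadjusted p under 0.05. Its unadjusted interaction p was 0.00657 (limma), and its difference was 1.08 in marrow and -1.48 in PT. For Ly6g the interaction was above 0 (unadjusted p = 0.00211), with a difference of -1.97 in marrow and 3.67 in PT. For Bcl2 itself it was below 0 (unadjusted p = 0.0385), and the PT side of it includes library 9.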

How the data were processed

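The authors analysed paired-end reads of amplified cDNA with AltAnalyze at default values and deposited log2(TPM + 1) per gene and library. The aligner, version and genome build are not given in the sources used here. The deposited averages, fold changes, p-values, marker, correlation and lineage tables hold the authors' comparisons or pooled values and were not used, nor were 2 per-sample columns of 1 unnamed library.

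Libraries were placed in groups by their column names. All 12 libraries entered 1 limma fit (3.58.1, R 4.3.3, with the trend option, leaving 8 residual degrees of freedom) of log2(TPM + 1), after genes under 1 TPM in 4 or more PT libraries were dropped. P-values were adjusted by Benjamini-Hochberg over 10634 genes. The fit was tested on simulated data. TPM keeps no read totals, so depth was estimated from steps between low values, of which 73.3 to 78.2% lay within 0.15 of a whole read (30% by chance). Gene positions and transcripts were from GENCODE M21 (27475 of 28987 gene IDs matched).

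Genes were named by rule: Bcl2, all genes called, the 10 protein-coding genes of smallest p in each direction, the 10 largest non-overlapping differences in each direction at 20 TPM or more, the smallest p of each list in each direction, genes named by the study, Bcl-2 family members and genes of the interaction. Gm13092, Rpl30 and its copies, the Y-linked genes, and other single list members were chosen with their values in view. The members, rule and lists were chosen with earlier results of these data known. Alternatives changed the filter, pseudocount, scaling, libraries, threshold and fit. The fit without library 9 with the filter on the other 5, and sums over genes sharing sequence, were chosen after seeing the data. Some genes of the lists are not reported here.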

Additional observations from a re-analysis of the deposited data

Results flagged for a closer look

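For Gm12191, the genotype difference (Bcl2 minus WT) in the peritoneum lay below that in marrow by -9.64 on the log2 scale, a difference between the sites that passed the interaction test in limma. Summed with the 13 genes of the table that share its sequence, the interaction had an adjusted p of 0.202.

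For Gm8186, a processed pseudogene that shares all its 31-mers with Snrpg and other genes, the same interaction was -9.25 (adjusted p = 0.0414, limma). Gm8186 was at 24.8, 31.2 and 9.47 TPM in PT WT and at 0 in libraries 7, 8 and 9, and the call remained in 1 of 12 fits that left out a library and in 5 of 21 alternatives. Summed with the genes that share its sequence, the interaction was -6.52 with an adjusted p of 0.177. Groups of 3 libraries were not tested for single libraries far from the rest.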

How the results depend on the processing

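No paired analysis was possible because the columns carry no replicate number. The 11 genes called lower became 0 with at least 1 TPM required in all 6 PT libraries and with protein-coding genes only, 1 with median centring and with only the 6 PT libraries fitted, 2 without library 9 and with median centring, 3 with no filter, 5 with quantile normalization, 6 without a trend, 17 with homopolymer genes left out, 37 with a pseudocount of 0.1 and 57 at an adjusted p under 0.1. They were 3 to 16 when each library was left out in turn, 6 without library 12. Genes called higher were 1 with a pseudocount of 0.1, at an adjusted p under 0.1 and without library 9 (also with centring or with the filter on the other 5), and 0 to 1 when each library was left out. At an unadjusted p under 0.05, genes lower were 517 with 1 TPM in all 6, 929 with at least 5 TPM in 3 of 6, 325 with centring, 435 with quantile normalization, 493 without library 9 and with centring, and 818 to 1852 with each library left out, the lowest without library 12. Genes higher were 29, 33, 461, 414 and 825 in the same order, 104 with homopolymer genes left out, 147 without library 9 and with the filter on the other 5, and 44 to 153 with each library left out (105 without library 8 and 153 without library 9). Non-overlapping genes were 736 higher and 595 lower with centring. The median over all genes was 0.15 with centring, 0.00 with quantile normalization, 0.20 without library 9 and with centring, and -0.85 to -0.51 with each library left out. The interaction called 0 genes with 1 TPM in all 6 and with protein-coding genes only, 1 with centring, with quantile normalization and without library 9 (with centring or the other filter), 4 without a trend, 6 with homopolymer genes left out and 6 with a pseudocount of 0.1, and 1 to 4 with each library left out.

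List medians with centring were 1.33 for anti-apoptotic genes, 0.04 for caspases, 1.06 for cytokines, 0.83 for receptors, 0.64 for adhesion, 0.41 for NF-kB, 0.41 for immediate early, 1.40 for interferon-stimulated, 0.68 for primary granule, 1.16 for secondary granule, 1.15 for identity, 0.25 for NADPH oxidase, 0.72 for Fc and pattern receptor, 0.64 for calreticulin and CD47, -0.22 for sialic acid, 0.40 for ER stress, -0.30 for nuclear respiratory, -0.82 for mitochondrially encoded, 0.18 for ribosomal, -0.25 for proteasome, 0.97 for glycolysis, 1.20 for lysosome, 0.65 for actin, -0.23 for cell cycle, 0.04 for splicing, -0.04 for macrophage, 0.01 for monocyte, 0.32 for T and NK cell and -0.19 for dendritic cell genes. With quantile normalization they were 0.81 for primary granule, -0.15 for sialic acid, 0.07 for ER stress, -0.56 for nuclear respiratory, -0.58 for proteasome, -0.24 for cell cycle, -0.51 for splicing, -0.08 for macrophage, -0.35 for monocyte, 0.16 for T and NK cell and -0.32 for dendritic cell genes. The primary granule median was 0.20 without library 9, and that of ER stress -0.30 with homopolymer genes left out. Of 36 list medians, 18 changed sign with centring, 7 with quantile normalization, 4 without library 9 and 3 with homopolymer genes left out. Among single genes, Rac1 (0.04), Hsp90b1 (0.09) and Pdia3 (0.16) turned positive with centring, and Rac1 (0.00), Hsp90b1 (0.08), Pdia3 (0.26) and Rpl30 (0.21) without library 9 and with centring. The cause was not tested. The filter on protein-coding genes, the threshold and the number of libraries fitted change the calls by construction. At this depth a gene listed at 0 in PT Bcl2 may lie under the worth of 1 read.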
